A study of Mus musculus with 2 samples.

Results

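Saa3, Lcn2, Orm1, Lrg1, Hp and Itih4 encode secreted acute-phase proteins, and they are described here in the alveolar type 2 (AT2) cells of a postnatal day 10 (P10) and an embryonic (E18.5) mouse lung library. They are 6 of the 32285 genes in the deposited matrices. The 6 were chosen by values of these same libraries, namely their higher level in P10 AT2 cells and their place among the leading genes of an AT2 cluster, so their levels, and their being high in the same P10 cells, are a description and carry no test. The study sorted lung cells labelled through Cdh16, a cadherin gene, and sequenced them as single cells with a 3′ droplet kit.

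The P10 and the E18.5 library share the labelled genotype Cdh16CreERT2;tdTomatoflox/flox, which the design text writes as Cdh16CreERT2/wt;R26-tdTomatoflox/wt. Cre expressed from Cdh16 turns on the red reporter tdTomato once tamoxifen is present. For both libraries, tamoxifen was given to pregnant females from E12.5 on, either injected at 0.1 mg/kg or fed at 0.4 g/kg, with no route stated per library. Red cells were taken from the fraction stained for CD326, the epithelial surface protein encoded by Epcam, after digestion with collagenase and dispase. Each time point is 1 library, from a number of animals not stated in the labels, which also call the P10 tissue embryonic lung. Time point and library therefore cannot be told apart, no value below has a replicate, and no test between time points was made. All intervals are 95% and cover counting error only.

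The P10 matrix held 14503 barcodes and 171205348 UMIs (unique molecular identifiers, 1 per captured transcript), and the E18.5 matrix 12739 barcodes and 137837590 UMIs. Cells needed 500 genes, 1000 UMIs and a mitochondrial share of no more than 20%, by which 14086 P10 cells and 12027 E18.5 cells were kept, at a median of 10250.5 and 8959 UMIs. Cells were clustered without the 6 genes and other acute-phase genes, and clusters were named from marker lists. AT2-like cells numbered 9064 of 14086 at P10 (64.3%) and 2206 of 12027 at E18.5 (18.3%). All 12 AT2 markers had UMIs in both, and they summed to 190327 CPM (counts per 1000000 UMIs) in P10 AT2-like cells and 167993 CPM in E18.5 AT2-like cells. Although the sort was for epithelium, both libraries also held macrophages, neutrophils, fibroblasts and endothelial cells, and 52 kept barcodes occurred in both libraries.

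The acute-phase response is a change in secreted proteins that follows infection or tissue injury. It is best known in the liver, where interleukin 6 acts through STAT3, and interleukin 1 and tumour necrosis factor act through NF-kB, together with C/EBP factors. Several of these proteins are also made locally in the lung epithelium, including by AT2 cells, which otherwise make surfactant. Among the 6, Saa3 is a serum amyloid A made outside the liver as well as in it. Lcn2 encodes a lipocalin that binds bacterial siderophores and so withholds iron, and Hp encodes haptoglobin, which binds free haemoglobin. Orm1 encodes alpha-1-acid glycoprotein, a plasma carrier of small lipophilic molecules. Lrg1 encodes leucine-rich alpha-2-glycoprotein, a modulator of TGF-beta signalling, and Itih4 encodes a heavy chain of the inter-alpha-trypsin inhibitor family.

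The stretches just upstream of the start sites of Saa3, Lcn2, Lrg1 and Itih4 are shown because these genes are linked in textbooks to the C/EBP, NF-kB and STAT factors. They come from RefSeq on GRCm38.p6, run 5′ to 3′ on the gene's own strand, and reach from 250 bases before to 50 bases after the start. The positions are chr7:46715627-46715926 on the minus strand for Saa3, chr2:32387690-32387989 on the minus strand for Lcn2, chr17:56121897-56122196 on the minus strand for Lrg1 and chr14:30886226-30886525 on the plus strand for Itih4. Capitals mark a match on either strand to a C/EBP motif (TTGCNNAA), an NF-kB motif (GGGA and CC with 4 bases of any kind between) or a STAT motif (TTCNNNGAA).
Saa3: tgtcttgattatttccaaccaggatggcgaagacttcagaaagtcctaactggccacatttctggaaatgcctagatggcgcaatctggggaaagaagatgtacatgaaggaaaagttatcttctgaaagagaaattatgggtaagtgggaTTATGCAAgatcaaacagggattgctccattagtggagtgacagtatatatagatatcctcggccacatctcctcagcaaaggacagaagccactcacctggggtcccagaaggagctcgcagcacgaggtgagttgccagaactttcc
Lcn2: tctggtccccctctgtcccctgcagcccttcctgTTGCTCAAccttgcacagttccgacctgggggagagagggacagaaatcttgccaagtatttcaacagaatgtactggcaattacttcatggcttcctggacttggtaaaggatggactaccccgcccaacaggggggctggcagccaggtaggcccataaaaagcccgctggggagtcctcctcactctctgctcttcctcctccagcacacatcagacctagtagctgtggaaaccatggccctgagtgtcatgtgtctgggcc
Lrg1: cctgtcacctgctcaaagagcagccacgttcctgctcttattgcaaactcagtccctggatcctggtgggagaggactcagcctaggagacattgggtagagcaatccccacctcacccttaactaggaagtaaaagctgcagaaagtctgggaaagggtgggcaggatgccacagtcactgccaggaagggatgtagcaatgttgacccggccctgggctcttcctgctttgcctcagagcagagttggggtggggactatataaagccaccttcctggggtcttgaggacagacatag
Itih4: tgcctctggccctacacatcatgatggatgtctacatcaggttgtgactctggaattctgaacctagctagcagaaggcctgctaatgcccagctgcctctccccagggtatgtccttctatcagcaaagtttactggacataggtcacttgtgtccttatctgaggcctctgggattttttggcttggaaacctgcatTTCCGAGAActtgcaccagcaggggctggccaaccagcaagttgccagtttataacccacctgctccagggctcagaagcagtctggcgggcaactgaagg
Saa3 holds a C/EBP match 99 bases and Lcn2 one 216 bases before the start, Itih4 holds a STAT match 51 bases before it, and Lrg1 holds none of the 3 motifs in this window. Of 32851 promoters of the same length, 10.8% hold the C/EBP motif, 20.7% the NF-kB motif and 8.30% the STAT motif. These matches are a description and were not checked against known sites.

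The genes lie on mm10, by the GENCODE annotation, at chromosome 7, 46711998 to 46715700 (Saa3, ENSMUSG00000040026), chromosome 2, 32384633 to 32388252 (Lcn2, ENSMUSG00000026822), chromosome 4, 63344560 to 63348163 (Orm1, ENSMUSG00000039196), and chromosome 17, 56119678 to 56122001 (Lrg1, ENSMUSG00000037095). Hp (ENSMUSG00000031722) lies at chromosome 8, 109575128 to 109579172, and Itih4 (ENSMUSG00000021922) at chromosome 14, 30886476 to 30902353. Orm1 and Itih4 are on the plus strand and the others on the minus strand, and all are protein-coding. The 3′ droplet libraries count transcripts near their poly(A) ends, so levels are compared between cells and not between genes. Whether reads in introns were counted is not stated, so unspliced RNA may be in the counts.

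In AT2-like cells, all 6 genes had a higher level in the P10 than in the E18.5 library. All 6 were at least 2 times higher, as were 14.8% of the 8356 genes measured there, and since the choice of the 6 used this contrast, nothing is read from that count. Across those 8356 genes the median log2 ratio was 0.22.

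Saa3 had 193 CPM in P10 AT2-like cells (20979 UMIs) and 5.72 CPM in E18.5 AT2-like cells (132 UMIs), a ratio of 33.8 (28.5 to 40.4). Orm1 had 46.9 CPM at P10 and 5.42 CPM at E18.5, a ratio of 8.65 (7.24 to 10.4). Itih4 had 157 CPM at P10 and 11.4 CPM at E18.5, a ratio of 13.7 (12.1 to 15.6). These 3 genes had few UMIs at E18.5, between 125 for Orm1 and 263 for Itih4 over all 2206 cells. Lcn2 had 3484 CPM at P10 and 644 CPM at E18.5, a ratio of 5.41 (5.33 to 5.50), and it was present in most AT2-like cells of both libraries. Hp had 740 CPM at P10 and 99.9 CPM at E18.5, a ratio of 7.41 (7.11 to 7.73). Lrg1 had 267 CPM at P10 and 34.1 CPM at E18.5, a ratio of 7.83 (7.30 to 8.42). The intervals lie far above 1 for each gene, but they describe the counting of 2 libraries and not the spread between animals. Without the 52 shared barcodes the ratios were 33.6 for Saa3, 5.40 for Lcn2, 8.57 for Orm1, 7.86 for Lrg1, 7.43 for Hp and 13.7 for Itih4.

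Paralogues could take reads from Orm1 and Saa3. Orm2 had 8.99 CPM in P10 and 0.304 CPM in E18.5 AT2-like cells, and Orm3 had 1.41 and 0.0867 CPM. Saa1 and Saa2 were at 0.0645 and 0.0277 CPM in P10 AT2-like cells and had no UMI in E18.5 AT2-like cells.

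**Figure D1:**
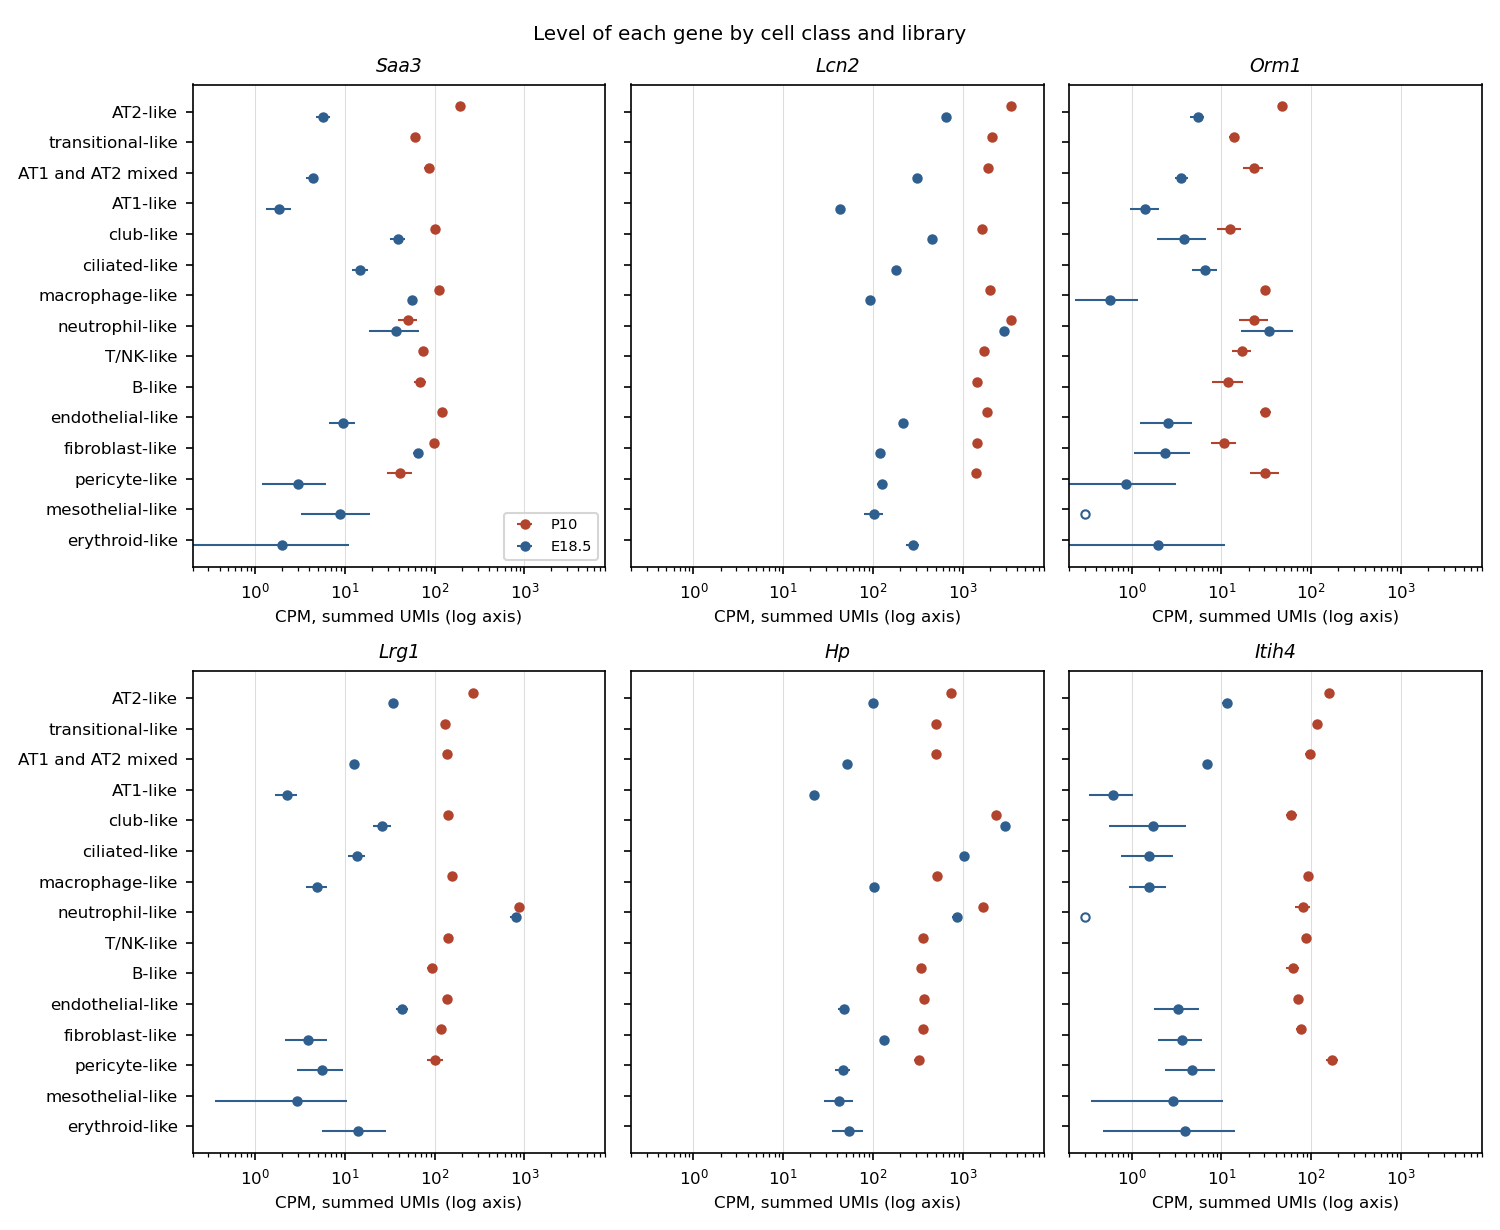
Level of each gene by cell class, in CPM on a log axis, over classes of at least 50 cells. Points are summed counts with 95% Poisson intervals (counting error only), P10 is drawn in red above E18.5 in blue, and open circles at the left edge mark classes with 0 UMIs. At P10 the 6 genes have UMIs in every class, while at E18.5 only Itih4 is highest in AT2-like cells.

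RNA of the 6 genes was found in every P10 class of at least 50 cells, so a UMI alone did not set AT2-like cells apart. Non-epithelial cells in the clusters lowest in alveolar markers (1197 cells at P10 and 1324 at E18.5) had 60.7 CPM of Saa3 at P10 and 26.3 CPM at E18.5, and 1475 CPM of Lcn2 at P10 and 209 CPM at E18.5. They were not free of alveolar RNA, since each of the 1197 P10 cells had Sftpc UMIs, at 40205 CPM. For these cells the P10 to E18.5 ratio was 2.31 for Saa3, 7.04 for Lcn2, 6.93 for Orm1, 6.25 for Lrg1, 5.19 for Hp and 21.1 for Itih4. All 6 were past the 2-fold mark there too, as were 14.4% of 10271 genes. With neutrophils included, Lcn2 and Itih4 thus had a larger factor in these cells than in AT2-like cells. Orm1, Lrg1 and Hp had a somewhat smaller one, and Saa3 a far smaller one. Neutrophils were 304 of the 1197 cells at P10 and 73 of the 1324 at E18.5. In P10, AT2-like cells had 3.19 times the level of those cells for Saa3, 2.36 times for Lcn2, 2.80 for Orm1, 2.27 for Itih4, 1.58 for Hp and 1.26 for Lrg1. In E18.5 the same ratios were 0.217 for Saa3, 3.07 for Lcn2, 2.25 for Orm1, 3.49 for Itih4, 1.10 for Hp and 1.00 for Lrg1. These cells include neutrophils, which make Lcn2, Lrg1 and Hp. Without neutrophils, a setting chosen after seeing the data, the P10 ratios were 3.09 for Saa3, 3.15 for Lcn2, 3.02 for Orm1, 2.34 for Itih4, 3.12 for Hp and 3.04 for Lrg1. At E18.5 they were 0.220 for Saa3, 4.40 for Lcn2, 3.24 for Orm1, 3.41 for Itih4, 1.38 for Hp and 2.11 for Lrg1. The ratios of Hp and Lrg1 thus depend on the neutrophils, and Saa3 stayed lower in AT2-like cells at E18.5. Without neutrophils the non-epithelial cells had 237 CPM of Hp at P10 and 72.3 CPM at E18.5, and 15.5 and 1.67 CPM of Orm1. Their P10 to E18.5 factor was thus smaller for Hp, and larger for Orm1, than with neutrophils included. The time factors given above therefore depend on the neutrophils too. With the neutrophils kept and by the same 2-fold mark, 4 of the 6 were higher in AT2-like than in these non-epithelial cells at P10, where 7.59% of 9932 genes were, and 3 of the 6 at E18.5, where 4.77% of 9458 genes were.

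Shares of cells with a UMI were compared after thinning each cell to 3000 UMIs. At P10, 12.2% of AT2-like cells had a Saa3 UMI (11.5 to 12.9), against 9.50% of T and NK cells (7.04 to 12.5) and 14.5% of neutrophils (8.70 to 22.2, from 117 cells). Before thinning, 32.2% of P10 AT2-like cells and 21.9% of T and NK cells had one, at median depths of 10383.5 and 4811 UMIs. T and NK cells are not known as a source of Saa3, yet the intervals of their thinned share and the AT2 share overlapped. Whether a single Saa3 UMI in a P10 AT2-like cell is background was not tested. Of the 538 T and NK cells, 143 lay in a cluster higher in alveolar markers, at a median depth of 14107 UMIs. The non-epithelial cells lowest in alveolar markers, which leave those 143 out, had a thinned Saa3 share of 11.4% (9.41 to 13.6). Orm1 had a UMI in 6.06% of thinned P10 AT2-like cells and 2.89% of T and NK cells, Itih4 in 30.8% and 16.5%, Lrg1 in 36.2% and 18.8%, Hp in 78.8% and 46.5%, and Lcn2 in 96.8% and 88.8%. These 5 shares were higher in AT2-like cells, although the T and NK shares were far from 0. At E18.5, 1.90% of thinned AT2-like cells had a Saa3 UMI (1.36 to 2.56), against 1.66% of endothelial cells (0.454 to 4.19), 4.64% of macrophages, 5.54% of fibroblasts, 6.67% of club-like cells and 0.467% of AT1-like cells (0.256 to 0.782). The E18.5 AT2 share of Saa3 was therefore above that of AT1-like cells and below that of macrophages, fibroblasts and club-like cells. Lcn2 had a UMI in 70.6% of E18.5 AT2-like cells, against 84.2% of neutrophils (60.4 to 96.6, from 19 cells), 61.4% of club-like, 51.1% of mixed and 25.7% of endothelial cells.

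Surfactant transcripts give a measure of how much AT2 RNA a class carries. The UMIs of each gene were therefore divided by those of Sftpc, the surfactant protein C gene that AT2 cells make, and set against the same ratio in AT2-like cells of the library. In P10 T and NK cells this relative ratio lay between 0.774 (Orm1) and 1.19 (Itih4), and in fibroblasts between 0.556 (Orm1) and 1.23 (Saa3). In those classes the 6 genes thus stayed within 2-fold of the proportion to Sftpc that they had in AT2-like cells. Both classes hold cells of clusters higher in alveolar markers (143 of 538 and 139 of 321 cells), whose part in these ratios was not tested. Neutrophils at P10 had 8.06 times the AT2 ratio for Lrg1, 5.67 times for Hp and 2.43 times for Lcn2, and club-like cells had 8.16 times for Hp. Itih4 in P10 pericytes and smooth muscle cells (166 UMIs) also lay above the AT2 ratio, by a larger factor than Lcn2 in neutrophils. Lcn2 and Lrg1 are stored in neutrophil granules, and Hp is a known product of both neutrophils and airway cells. The barcodes left out by the cell filter at P10 carried the genes as well, at 175 CPM of Saa3 and 1458 CPM of Lcn2.

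At E18.5 the picture differed by gene. Relative to Sftpc, Saa3 in macrophages stood at 94.5 times the AT2 ratio, in fibroblasts at 62.5 times and in club-like cells at 41.6 times. Hp stood at 181 times in club-like and 70.6 times in ciliated cells, Lrg1 at 78.3 times and Lcn2 at 15.1 times in neutrophils. Itih4 stayed between 0.756 and 1.85 times in each class with a UMI. Several of these classes held few Itih4 UMIs, with 5 in club-like cells, 11 in pericytes and smooth muscle cells and 19 in macrophages. Its point values at E18.5 thus lay within 2-fold of the AT2 proportion to Sftpc, with wide counting error in those classes.

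**Figure D2:**
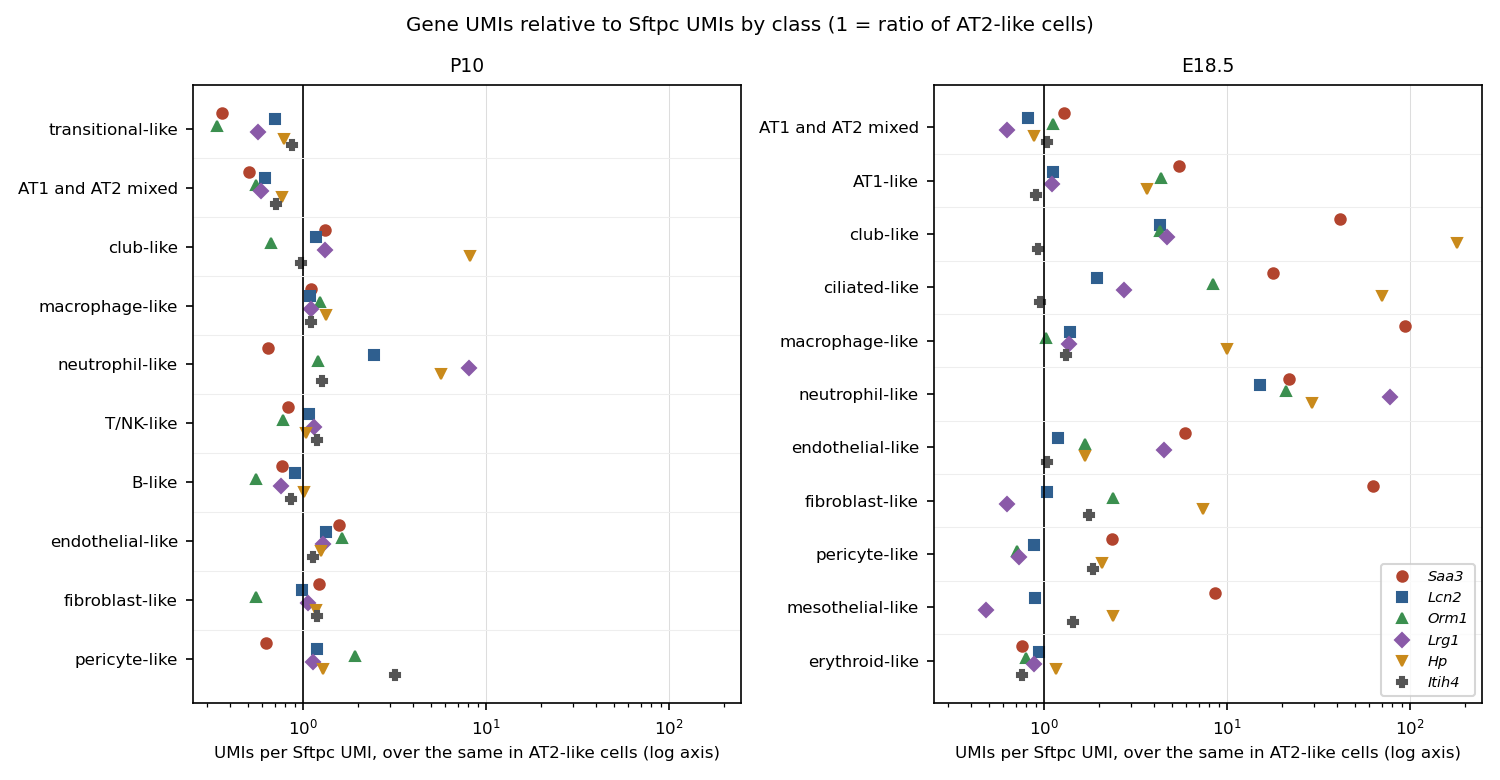
UMIs of each gene per Sftpc UMI, divided by the same ratio in AT2-like cells of the library, on a log axis, with P10 in the left and E18.5 in the right panel. The line at 1 is the AT2 proportion and classes with 0 UMIs are not drawn. At P10 most classes lie near the line, with Lrg1 in neutrophils (8.06) and Hp in club-like cells (8.16) farthest above it.

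The order of the classes by level placed AT2-like cells first at P10 for Saa3 (193 CPM, followed by endothelial cells at 122 CPM), Lcn2 and Orm1. For Lcn2 the AT2-like cells at 3484 CPM and the neutrophils at 3432 CPM did not differ beyond counting error. Lrg1 was highest in P10 neutrophils (873 CPM) and next in AT2-like cells (267 CPM). Hp was highest in P10 club-like cells (2377 CPM), then neutrophils (1702 CPM), then AT2-like cells (740 CPM). Itih4 in pericytes and smooth muscle cells (169 CPM) and in AT2-like cells (157 CPM) had overlapping intervals at P10. In that pericyte class 84 cells of cluster 22 held 162 of the Itih4 UMIs and 35 cells of cluster 14 held 4.

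At E18.5, AT2-like cells came first for Itih4 only (11.4 CPM). Saa3 was highest there in fibroblasts (64.7 CPM) and macrophages (56.0 CPM), with overlapping intervals, and AT2-like cells came 8th of 12 classes. Within the E18.5 macrophages, cluster 14, which is led by Plac8, Ly6c2 and S100a8, had 238 CPM of Saa3. Neutrophils led for Lcn2 at 2915 CPM, for Orm1 at 34.1 CPM and for Lrg1 at 798 CPM, and club-like cells led for Hp at 2945 CPM. In the neutrophils, Lcn2 differed little between libraries, with a P10 to E18.5 ratio of 1.18 (1.09 to 1.27), and so did Lrg1 at 1.09 (0.951 to 1.26). In the club-like cells Hp was lower at P10, with a ratio of 0.807 (0.783 to 0.832). These classes carry alveolar RNA too, and its part in these ratios was not tested.

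Within P10 AT2-like cells the counts were uneven between cells, most of all for Saa3. No Saa3 UMI was found in 67.8% of the 9064 cells and 1 UMI in 22.5%, while 231 cells (2.55%; 2.23 to 2.89) had 10 or more, up to 477. The top 1% of cells held 66.0% of all Saa3 UMIs, and 46 cells held 50% of them. Orm1 was spread in the same uneven way, with no UMI in 84.0% of cells, 10 or more in 104 cells and 54.3% of its UMIs in the top 1% of cells. Lcn2 was nearly everywhere and yet uneven, with no UMI in 0.342% of cells, a median of 16 and a maximum of 1065, and 774 cells holding 50% of its UMIs. Hp (median 6, maximum 153), Lrg1 (maximum 103) and Itih4 (maximum 39) were spread over more cells, with 50% of UMIs in 1541, 694 and 1113 cells.

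After thinning to 3000 UMIs, the variance over the mean (the Fano factor, near 1 for counting noise alone) was 27.9 for Saa3, 26.6 for Lcn2, 5.31 for Orm1, 3.42 for Lrg1, 3.26 for Hp and 1.57 for Itih4 in P10 AT2-like cells. By the same measure Gapdh had 1.12, Epcam 1.05 and the surfactant genes Sftpb 1.93 and Sftpc 14.5. The factor grows with the mean of an uneven gene, and Sftpc is by far the most abundant of these. Saa3 and Lcn2 thus lay above both surfactant genes, Orm1, Lrg1 and Hp between them, and Itih4 between Gapdh and Sftpb.

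In E18.5 AT2-like cells the high tail was largely missing. None of the 2206 cells reached 10 Saa3 UMIs, and the maximum was 9. Lcn2 had no UMI in 10.8% of cells, a median of 5, a maximum of 72 and a thinned Fano factor of 2.33. The maxima were 3 for Orm1, 11 for Lrg1, 14 for Hp and 4 for Itih4.

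Cells with 10 or more Saa3 UMIs were found in several classes. At P10, 2.55% of AT2-like cells (2.23 to 2.89) reached that count, against 0 of 304 neutrophils, which allows up to 0.987%, and 0.558% of T and NK cells (3 of 538). Among P10 macrophages 19 of 633 reached it, with up to 247 UMIs, and among club-like cells 6 of 147. Endothelial cells at 1.84% (0.797 to 3.59) and fibroblasts at 1.56% (0.508 to 3.60) had intervals that overlap the AT2 one. Of these classes, 418 of 435 endothelial cells, 486 of 633 macrophages and 139 of 321 fibroblasts lay in clusters higher in alveolar markers. In the 1197 non-epithelial cells lowest in alveolar markers, 7 cells (0.585%; 0.235 to 1.20) reached 10 Saa3 UMIs, at a median depth of 5005 UMIs. A fixed count is harder to reach in shallow cells, and the median depth was 10383.5 UMIs in AT2-like cells, 2603 in neutrophils, 4811 in T and NK cells and 13312 in macrophages. At E18.5, 22 macrophages (2.10%) and 9 fibroblasts (1.88%) reached it and no AT2-like cell did.

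**Figure D3:**
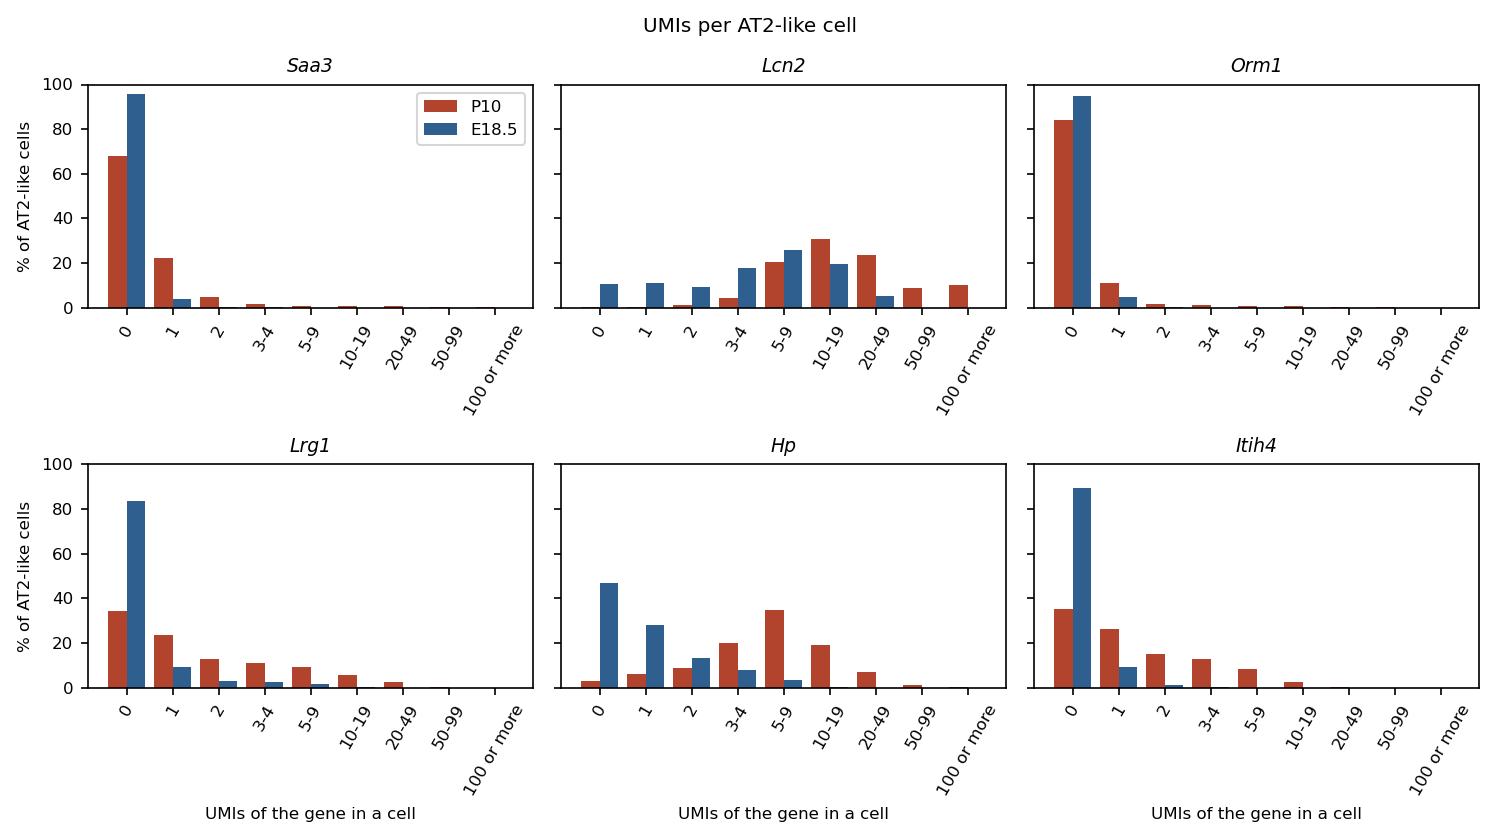
Percent of AT2-like cells by number of UMIs of each gene in the cell, unthinned, with P10 (9064 cells) as the left and E18.5 (2206 cells) as the right bar of each pair. The tail of 10 or more Saa3 UMIs holds 2.55% of P10 cells and no E18.5 cell, and the Lcn2 bars lie farther right at P10.

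The 231 P10 AT2-like cells with 10 or more Saa3 UMIs also held more of the other genes than the 8833 cells with fewer. Lcn2 was at 18209 CPM in them and 2957 CPM in the rest, Orm1 at 585 and 27.6 CPM, and Lrg1 at 925 and 243 CPM. Hp was at 2633 CPM in them and 673 CPM in the rest, and Itih4 at 346 and 150 CPM. Since the 6 were picked as leading genes of a cluster of this library, their being high together here describes that choice. In the 231 cells Sftpc was at 129724 CPM, against 150212 CPM in the rest, and the median depth was 13125 against 10335 UMIs. Sftpc had UMIs in non-epithelial cells too, so by itself it does not establish the class of these cells.

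Across P10 AT2-like cells each of the 15 pairs of the 6 genes correlated positively. Pearson's r of log values over 9064 cells lay between 0.147 (Saa3 and Itih4) and 0.493 (Lcn2 and Hp), with a median of 0.334. After thinning the range was 0.087 to 0.361. In the 2206 E18.5 AT2-like cells r lay between -0.002 and 0.201, with a median of 0.031 and the highest value for Lcn2 and Lrg1. All cells of a library share its preparation, and sparse genes give low r, so these values describe the libraries.

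The detection of the genes in single cells was set against the product of the single shares. After thinning, Saa3 and Orm1 were found together in 168 P10 AT2-like cells, 1.89% of cells against a product of 0.739%, and in no E18.5 cell. Orm1 with Lrg1 was found at 1.67 times and Orm1 with Itih4 at 1.43 times the product, and the other pairs lay between 1.00 and 1.26 times. UMIs of all 6 genes were found in 476 of 9064 P10 AT2-like cells (5.25%, against a product of 2.12%) and in none of 2206 at E18.5. At least 3 of the 6 were found in 87.6% of P10 and 20.3% of E18.5 AT2-like cells, against 92.1% and 17.2% if the 6 were detected independently. After thinning the shares were 50.1% and 4.07%, against 53.0% and 2.95%. At P10, cells with all 6 were thus more frequent, and cells with at least 3 less frequent, than the single shares give.

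**Figure D4:**
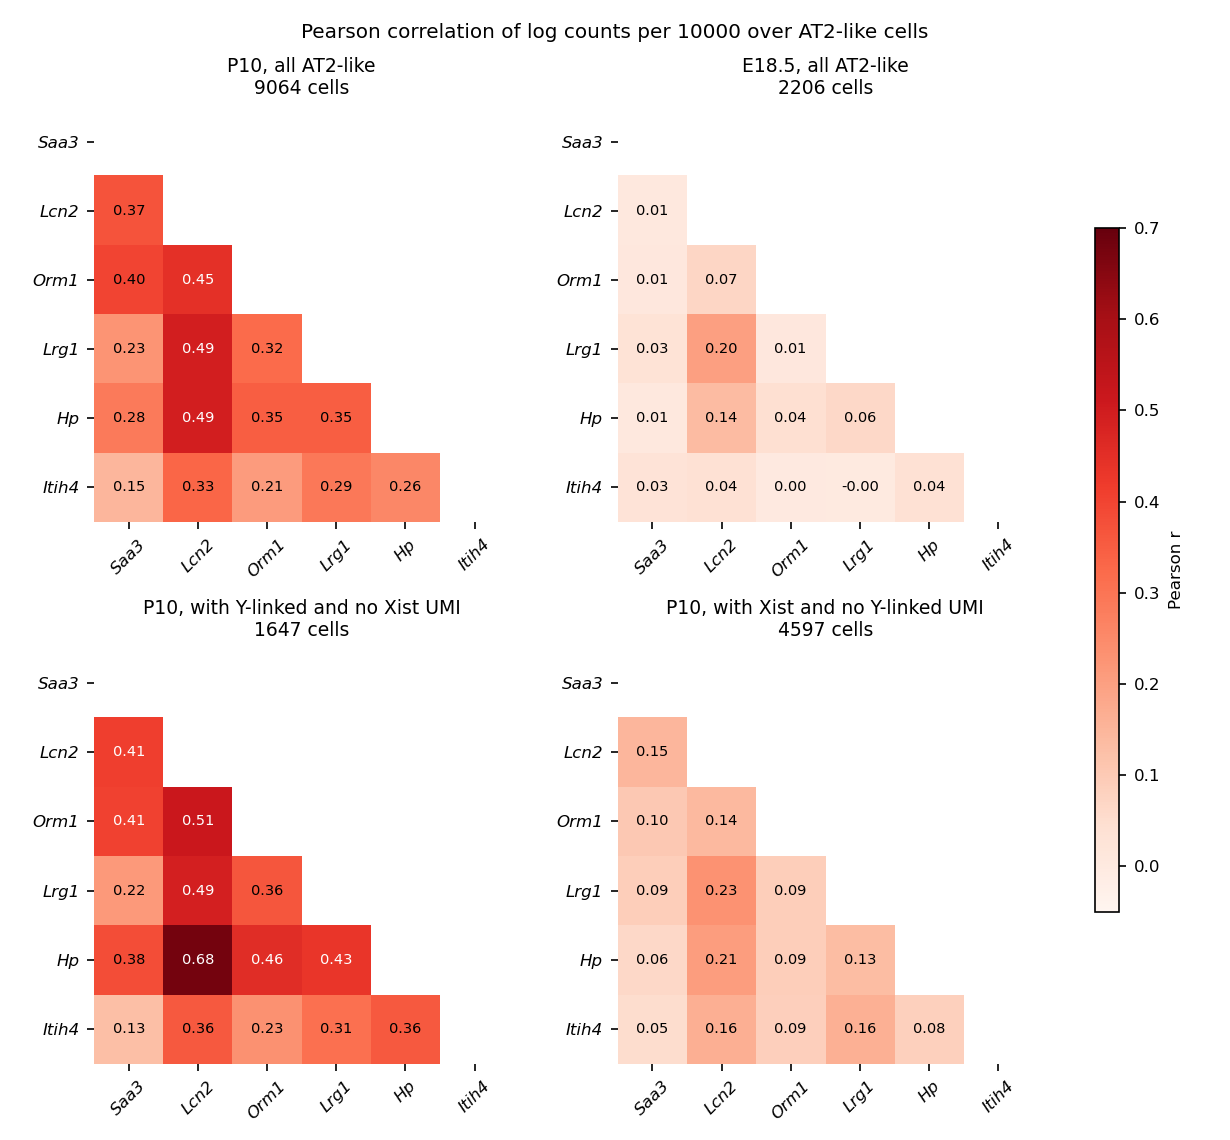
Pearson's r of log values for each pair of the 6 genes across AT2-like cells, as lower triangles for all P10 cells, all E18.5 cells, P10 cells with Y-linked and no Xist UMIs, and P10 cells with Xist and no Y-linked UMIs. The median over the 15 pairs is 0.334, 0.031, 0.381 and 0.104 in that order.

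The 5 AT2-like clusters of P10, built without the 6 genes, differed in their levels. Cluster 3, with 85 cells, had 3641 CPM of Saa3, 20367 CPM of Lcn2, 703 CPM of Orm1, 1194 CPM of Lrg1, 2889 CPM of Hp and 439 CPM of Itih4. Cluster 1, with 1989 cells, had 457 CPM of Saa3, 7201 CPM of Lcn2, 119 CPM of Orm1, 509 CPM of Lrg1, 1120 CPM of Hp and 232 CPM of Itih4. Cluster 5, with 2706 cells, was lowest for all but Hp, at 37.4 CPM of Saa3, 1593 CPM of Lcn2, 11.8 CPM of Orm1, 157 CPM of Lrg1, 592 CPM of Hp and 121 CPM of Itih4. The order of clusters 3, 1 and 5 was the same for each gene, and clusters 2 and 4 lay between clusters 1 and 5 for all but Hp, where cluster 4 was at 587 CPM. Genes that move with the 6 took part in the clustering, so these gaps are partly built in. Cells with 10 or more Saa3 UMIs made up 41.2% of cluster 3, 7.44% of cluster 1 and 0.185% of cluster 5. By the marker rule used for naming, 9 of the 12 AT2 markers were raised in cluster 3. All 12 were raised in clusters 1, 2, 4 and 5. Both E18.5 AT2-like clusters lay close together, at 4.97 and 7.21 CPM of Saa3 and 635 and 660 CPM of Lcn2.

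Cells of both sexes were present in the P10 library, and the genes differed between them. Of the P10 AT2-like cells, 1647 had UMIs of Y-linked genes and none of Xist (the RNA of the inactive X chromosome), and 4597 had Xist and no Y-linked UMI, with 1775 holding both and 1045 neither. Lcn2 was at 7306 CPM in Y-linked and 1705 CPM in Xist cells, a ratio of 4.29 (4.25 to 4.32). Saa3 was at 447 CPM in Y-linked and 50.4 CPM in Xist cells, a ratio of 8.87 (8.49 to 9.28), and Orm1 at 126 and 12.3 CPM, a ratio of 10.3 (9.39 to 11.2). Lrg1 was 3.48 times, Hp 2.02 times and Itih4 1.90 times as high in the Y-linked cells, while Sftpc had a ratio of 0.960. All 6 genes were thus higher in the Y-linked cells, 5 of them at least 2 times, as were 0.388% of 7985 genes. The Y-linked cells were not spread evenly over the clusters. Among cells with Y-linked or Xist UMIs but not both, they made up 26.4% over all AT2-like cells. In cluster 3 they made up 91.7%, in cluster 1 50.6% and in cluster 5 13.5%. Since the 6 were picked as leading genes of an AT2 cluster, nothing is read from that count. Genes outside the 6 differed in the same direction, Chil1 with a ratio of 1.72 and Fth1 with 1.55. Per cell, the distributions overlapped: Lcn2 had a median of 32.6 per 10000 UMIs in Y-linked cells and 11.7 in Xist cells. Of the 231 cells with 10 or more Saa3 UMIs, 100 were Y-linked and 22 were Xist cells.

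The gap was found within clusters too, with a size that differed by gene. The Lcn2 ratio of Y-linked to Xist cells was 3.39 in cluster 1, 2.54 in cluster 2, 2.79 in cluster 4, 2.45 in cluster 5 and 2.47 in transitional cells. The Saa3 ratio varied more, at 6.29 in cluster 1, 1.86 in cluster 2, 3.41 in cluster 4, 1.29 in cluster 5 and 1.30 in transitional cells. The Hp ratio was 2.44 in cluster 1, 1.48 in cluster 2, 1.25 in cluster 4 and 1.24 in transitional cells. In cluster 5 the Hp gap was close to counting error, at 1.06 (1.003 to 1.114). Over these groups Orm1 lay between 1.55 and 8.60, Lrg1 between 2.09 and 2.88 and Itih4 between 1.38 and 1.73. Hbb-bs, a haemoglobin gene outside the 6, stood at 3.07 in cluster 1 and 0.169 in cluster 5. Cluster 3 held 44 Y-linked and 4 Xist cells, with a Lcn2 ratio of 1.70 (1.58 to 1.83) and 4 Saa3 UMIs in all in the Xist cells, and there Itih4 was lower in the Y-linked cells, with overlapping intervals. In the non-epithelial cells lowest in alveolar markers the gap was smaller, with Lcn2 at 1242 CPM in 258 Y-linked and 836 CPM in 455 Xist cells. At E18.5, with 470 Y-linked and 942 Xist AT2-like cells, the ratios were 1.62 for Saa3 (1.06 to 2.47), 0.933 for Lcn2 (0.894 to 0.974), 0.972 for Orm1 (0.614 to 1.51), 0.909 for Lrg1 (0.754 to 1.09), 0.901 for Hp (0.806 to 1.01) and 1.21 for Itih4 (0.888 to 1.65). The E18.5 gaps were therefore small beside those of P10. With the number of animals not given, sex and animal cannot be told apart.

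Correlations at P10 were higher among the Y-linked than among the Xist cells. The median r over the 15 pairs was 0.381 (0.128 to 0.679) in the 1647 Y-linked cells and 0.104 (0.0523 to 0.231) in the 4597 Xist cells. By cluster the median was 0.403 in cluster 1, 0.383 in cluster 3, 0.202 in cluster 2, 0.147 in cluster 4 and 0.0823 in cluster 5.

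**Figure D5:**
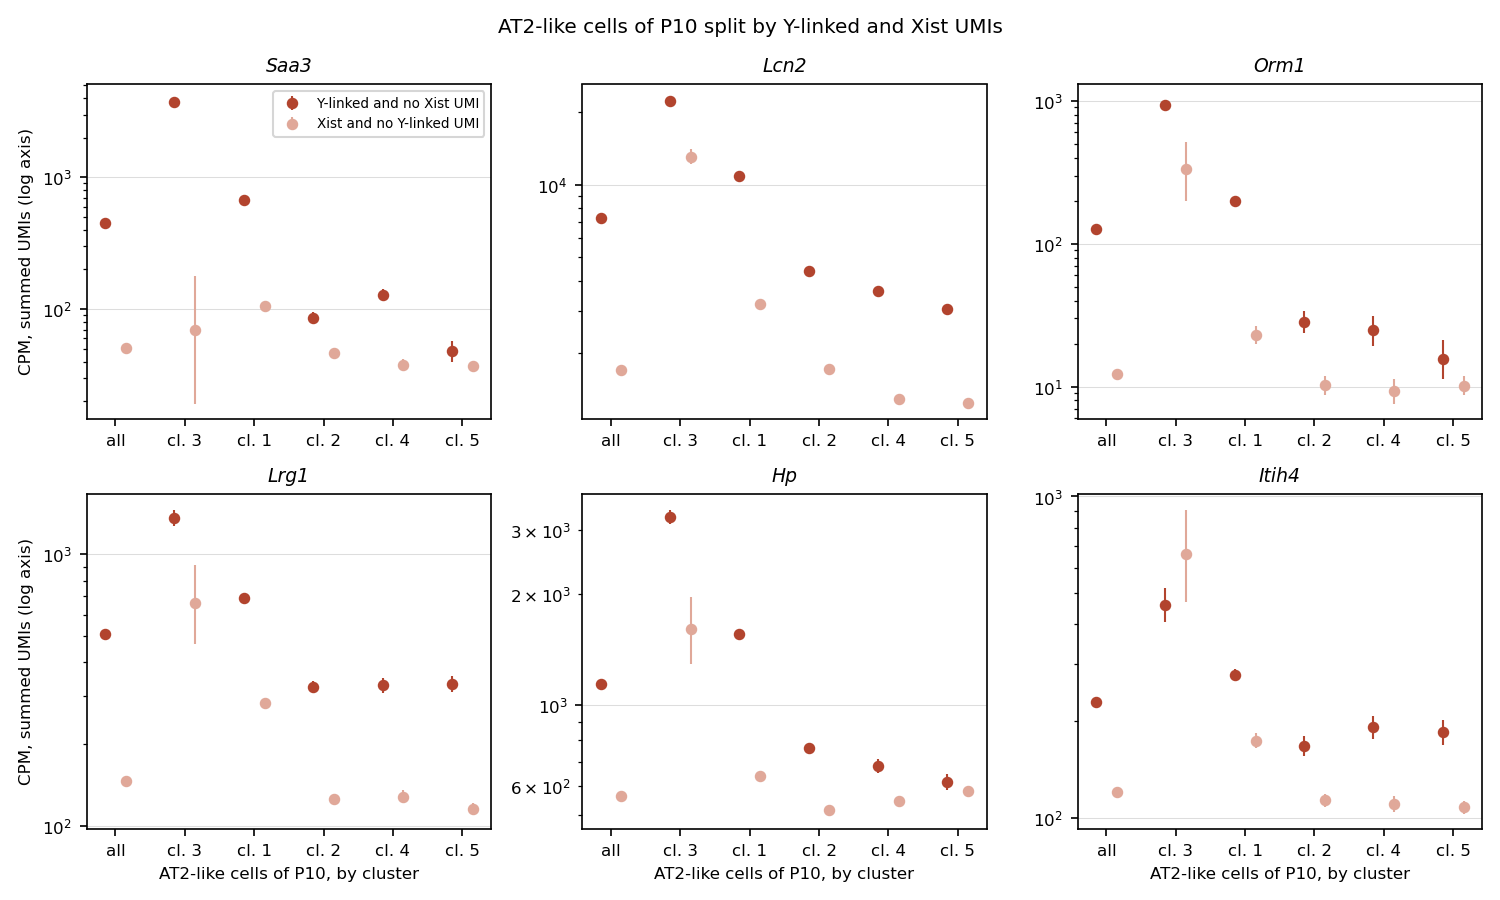
Level of each gene in P10 AT2-like cells, in CPM on a log axis with 95% Poisson intervals (counting error only), for all AT2-like cells and for each of the 5 clusters. Dark points on the left are cells with Y-linked and no Xist UMIs and pale points on the right cells with Xist and no Y-linked UMIs. Over all AT2-like cells Lcn2 is 4.29 times and Saa3 8.87 times as high in the Y-linked cells.

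Markers of immune cells other than Lyz2 were low in the AT2-like cells. The 11 neutrophil markers, among them S100a8, all had UMIs and summed to 117 CPM in P10 AT2-like cells, against 58800 CPM in P10 neutrophils. Their sum lay between 115 and 156 CPM in the 5 AT2-like clusters, and its r with the summed 6 genes was 0.00698 across cells. At E18.5 the sum was 46.9 CPM, with Cxcr2 at 0. The 16 macrophage and monocyte markers summed to 17042 CPM in P10 and 9184 CPM in E18.5 AT2-like cells, with an r of 0.228 and 0.187, but without Lyz2, which AT2 cells also make, they summed to 111 and 120 CPM. Club markers summed to 3791 CPM in P10 and 1533 CPM in E18.5 AT2-like cells, and AT1 markers to 2242 and 4550 CPM, with r between -0.0945 and 0.0123. The part of these other cells' RNA in the results was not tested. In the 1016 P10 AT2-like cells with no neutrophil or macrophage marker UMI other than Lyz2, Saa3 was at 177 CPM, Lcn2 at 2963 CPM and the median r over pairs at 0.239.

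The genes whose counts moved most like the 6 across P10 AT2-like cells were ranked by their mean r with the 6, among 3004 genes at 50 CPM or more. Chil1, a chitinase-like secreted protein, came first at 0.414, then Fth1, the ferritin heavy chain, at 0.385, C3, the central complement component, at 0.310, and Ly6i at 0.296. Sftpd at 0.254, H2afz at 0.248, Sod2, the mitochondrial superoxide dismutase, at 0.238, Cyba at 0.235, Tmem176a at 0.233 and Tmem176b at 0.227 followed. The median over all 3004 genes was 0.00704 and the 99th percentile 0.139. Of these 10, 9 were also among the first 10 after thinning. At E18.5 the mean r was 0.117 for Chil1 and 0.039 for Fth1. Chil1 was at 6177 CPM in the 231 high-Saa3 cells and 2664 CPM in the rest, and Fth1 at 8944 and 2996 CPM.

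Over the summed counts of 23 classes of both libraries, the gene with the most similar profile among 7282 was Chil1 for Lcn2 (r of 0.947), Gm20629 for Itih4 (0.981), Osgin1 for Hp (0.873), Entpd1 for Lrg1 (0.915), Acer3 for Saa3 (0.813) and Slc24a4 for Orm1 (0.877). Ly6i, which also tracked the 6 across cells, was the second for Saa3 at 0.810. The classes of a library share its preparation and its free RNA, so these values describe the 2 libraries.

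Other genes of the acute-phase response did not all stand higher at P10. Of 40 other acute-phase genes, 8 had 10 CPM or more in AT2-like cells of either library, and of these Cp (ceruloplasmin, log2 ratio of P10 over E18.5 2.69), Chil3 (2.75) and C3 (1.81) were at least 2 times higher at P10. The metallothionein genes Mt2 (-4.53) and Mt1 (-2.76) and the transferrin gene Trf (-1.26) were at least 2 times lower, which 9.16% of all measured genes were. Chil3 was far higher in the non-epithelial cells lowest in alveolar markers, at 1183 CPM at P10 and 17.0 CPM at E18.5, against 16.9 and 2.52 CPM in AT2-like cells. Cp was higher in those cells too, at 65.4 and 51.9 CPM against 11.4 and 1.78 CPM in AT2-like cells, and the part of their RNA in the AT2 ratios was not tested. Lbp (0.24) and Cd14 (0.38), which bind bacterial lipopolysaccharide, were neither. The median over the 8 was 0.31, beside 0.22 over all genes.

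Of 14 genes of ligands that start the response, 3 were measured in AT2-like cells. Il33 was at 156 CPM at P10 and 197 CPM at E18.5, Il1b at 8.81 and 15.7 CPM, and Il6, the one past the 2-fold mark, was lower at P10, at 3.28 and 17.9 CPM (log2 ratio -2.45). Of 17 receptor genes 13 were measured, 4 of them at least 2 times higher at P10 and none lower, beside 14.8% higher and 9.16% lower of all measured genes, with a median of 0.87. The higher ones were Il6ra (2.03), the interleukin 6 receptor, Osmr (1.61), the oncostatin M receptor, Tlr4 (1.35), the lipopolysaccharide receptor, and Il1r1 (1.32). Il6st, the shared signalling chain gp130, had 0.87.

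Of 20 genes that relay the signal, 19 were measured, with 5 higher and 2 lower (14.8% and 9.16% over all genes) and a median of 0.62. At a floor of 50 CPM 13 of them were measured, with 1 higher, 2 lower and a median of 0.31. Stat3 (1.37), Relb (1.91), Nfkb2 (1.57), Jak2 (1.21) and Tnfaip3 (1.13) were higher at P10, and the C/EBP genes Cebpb (-1.21) and Cebpd (-1.26) were lower. Socs3, an inhibitor that STAT3 induces, had -0.78, and Nfkbia, an inhibitor that NF-kB induces, had -0.04. Of 16 chemokines and other NF-kB targets, 9 were measured, with 3 higher (Slpi at 2.00, S100a9 at 1.96 and S100a8 at 1.61), 4 lower (Csf2 at -2.49, Pglyrp1 at -1.92, Cxcl2 and Ptgs2 both at -1.21), beside 14.8% and 9.16% over all genes, and a median of 0.05. S100a8 and S100a9 are abundant in neutrophils and also stand in the neutrophil marker list. Of the receptor, relay and chemokine genes named here, Il6ra, Il1r1, Relb, Nfkb2, Jak2, Tnfaip3, Cebpb, Socs3 and Csf2 lay outside the 8 highest of their list at P10 and were named after their values were seen.

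Genes of the proteins' partners, of iron and of stress were mixed, and their counts stand beside 14.8% higher and 9.16% lower over all genes. Of 11 receptors for the secreted proteins 5 were measured, of which Lrp2, a receptor that takes up Lcn2 protein, was higher (1.11), with a median of -0.08. Of 12 iron genes 8 were measured, with Cp higher, Trf lower and Fth1 level between libraries (0.01), although Fth1 tracked the 6 genes across cells. Of 14 immediate early and heat shock genes, which rise when tissue is dissociated, 13 were measured, with 5 higher (Fosb at 3.83, Fos at 2.11) and 2 lower, and none had a mean r with the 6 above 0.1. Of the 11 surfactant genes all were measured, with Sftpd (1.47) and Sftpb (1.06) higher and a median of 0.49.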

How the data were processed

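Single-cell 3′ libraries of P10 and E18.5 mouse lung were analysed from the deposited matrices of UMI counts per gene and barcode. Per the file headers, the authors obtained these counts from Cell Ranger 7.0.1, and the submitters' processing notes name mm10 and Seurat 4.0.0, with the role of Seurat not given in the sources used here. Barcodes needed 500 genes, 1000 UMIs and a mitochondrial share of no more than 20%, which left out 417 P10 and 712 E18.5 barcodes.

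Each library was clustered alone (2000 variable genes, 30 components, 15 neighbours, Leiden resolution 1), leaving out the 6 genes and other acute-phase genes, with scanpy 1.11.5, anndata 0.12.19, igraph 0.11.9 and scikit-learn 1.9.0 in Python 3.11.15, numpy 2.4.6, scipy 1.17.1 and pandas 2.3.3. Figures used matplotlib 3.10.9. A non-alveolar class name needed at least 3 markers, and at least 35% of its list, to be raised in a cluster. Raised meant found in at least 25% of its cells at 3 times the 10th percentile over clusters. AT2-like and AT1-like clusters needed at least 3 raised markers and a scaled marker level of at least 0.5. Mixed clusters also reached 0.25 for the other alveolar type. A non-alveolar name took priority, as for P10 macrophage cluster 18 with an AT2 level of 0.558. The P10 transitional cluster also reached the AT2 level, at 0.665, and was named apart. A name was withheld where the top 10 genes spoke against it. These naming rules were set after the clusters were seen. Clusters left unnamed hold 183 P10 and 1034 E18.5 cells. Doublets were not removed, and a doublet score served only as an alternative.

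Counts were summed over cells of a class and divided by the UMI total (CPM). CPM values have exact Poisson intervals, shares have exact Clopper-Pearson intervals and ratios have exact conditional binomial intervals, all at 95%. A gene counted as measured at 10 CPM in either library and as higher or lower at 2-fold, and a count of 0 was read as allowing up to 3. Shares of cells were thinned to 3000 UMIs, which left out 823 P10 and 1332 E18.5 cells. Correlations are Pearson's r of log(1 + counts per 10000 UMIs). The steps were tested on simulated data.

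The 6 genes, the gene lists and the comparisons were chosen with earlier results of these data known. Genes named beside the 6 are the 10 with the highest mean r at 50 CPM or more, the closest class profiles, and up to 8 measured genes per list by P10 level, apart from those said to be chosen later. Other resolutions, filters, thinning depths and subsets of cells were tried as alternatives.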

Additional observations from a re-analysis of the deposited data

How the results depend on the processing

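In each alternative the P10 level of each of the 6 genes in AT2-like cells stayed above the E18.5 level. On the log2 scale the main ratios were 5.08 for Saa3, 2.44 for Lcn2, 3.11 for Orm1, 2.97 for Lrg1, 2.89 for Hp and 3.78 for Itih4, and 87.6% of P10 AT2-like cells had UMIs of at least 3 of the 6. Of 79 values under alternatives, 45 moved beyond the counting interval and 34 did not. Among the subsets of cells, the split by Y-linked and Xist UMIs moved the 6 ratios farthest, and thinning moved the share farthest. In Xist cells only, the ratios were 3.27 for Saa3, 1.39 for Lcn2, 0.95 for Orm1, 2.01 for Lrg1, 2.47 for Hp and 3.42 for Itih4, with the share at 84.8%. In Y-linked cells only, they were 5.72 for Saa3, 3.59 for Lcn2, 4.35 for Orm1, 3.94 for Lrg1, 3.64 for Hp and 4.07 for Itih4, with the share at 92.8%. Clustering with the 6 genes kept gave 5.49 for Saa3, 2.68 for Lcn2, 3.42 for Orm1, 3.25 for Lrg1 and 3.04 for Hp. Resolution 0.5 moved the share to 86.2%, and resolution 2 gave 2.57 for Lcn2, 3.18 for Lrg1 and 3.02 for Hp. A filter of 1000 genes and 2000 UMIs gave 5.38 for Saa3, 2.56 for Lcn2, 3.19 for Lrg1 and 2.996 for Hp. Thinning to 3000 UMIs gave 4.80 for Saa3, 2.32 for Lcn2, 2.84 for Orm1 and a share of 50.1%, and thinning to 1000 UMIs a share of 16.0%, since fewer UMIs are left. Weighting cells equally gave 4.65 for Saa3, 2.36 for Lcn2 and 2.79 for Hp. A floor of 50 CPM left 611 higher and 379 lower genes of 1237 and 765. Of the counts of list genes, which are not among the 79 values, 7 moved at that floor and 13 did not. Higher relay genes went from 5 of 19 measured to 1 of 13, and higher receptor genes from 4 of 13 to 1 of 4. Higher other acute-phase genes went from 3 of 8 to 1 of 6, beside 611 of 3442 over all genes at that floor. Of the ligand genes only Il33 was still measured, so the lower Il6 no longer counted. As alternatives added after seeing the data, cells with no neutrophil or macrophage marker gave 4.46 for Saa3, 2.24 for Lcn2, 2.57 for Orm1, 2.86 for Lrg1 and a share of 78.4%, and AT2-like with transitional cells gave 2.33 for Lcn2, 2.82 for Lrg1 and 2.80 for Hp. Apart from the thinning and the floor, the cause was not tested. No paired analysis was possible because each group has 1 library. At E18.5 the depth limits Saa3, Orm1 and Itih4, which rest on 132, 125 and 263 UMIs in AT2-like cells.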
